A study of Mus musculus with 4 samples.

Results

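The genes described here encode the enzymes, chaperones and transport factors that fold, trim, export and cross-link collagen. They were taken from a list of 35 symbols, and all 35 were found among the 24421 rows of the deposited count table. Poly(A) RNA had been sequenced from the superficial zone of the articular cartilage, its surface layer, taken from the medial femoral condyle 8 weeks after knee surgery. The animals were 2 C57BL/6J mice, M04 and M05, whose age is not given, and each gave a DMM knee and a sham-operated knee. In DMM (destabilization of the medial meniscus) the ligament that anchors the meniscus is cut, and the unstable joint develops osteoarthritis. With 1 library for each knee there were 2 libraries a group. Both mice are wild type in the sample labels, but in the design text M05 is a knockout, of a gene that is not named, so M05 against M04 is treated as a comparison of 2 animals.

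Collagen chains are hydroxylated on proline and lysine in the endoplasmic reticulum while they fold into a triple helix, helped by chaperones and prolyl isomerases. The helix leaves in enlarged COPII carriers, its end pieces (propeptides) are cut off by metalloproteases, and lysyl oxidases then join the molecules of a fibril. In articular cartilage this machinery serves mainly collagen types II, IX and XI. Bone, marrow stroma and fibrous tissue use the same enzymes for types I and III, so none of these genes marks a chondrocyte.

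The libraries were not pure cartilage. Total counts lay between 12712425 and 19336628. Haemoglobin rows took 25.7% to 35.3% of the counts, and 16 chondrocyte markers, none of them at 0, together took 0.159% to 0.832%. The sham library of M05 stood apart with the lowest chondrocyte share, against 0.543% in the DMM knee of the same mouse, 0.669% in the sham knee of M04 and 0.832% in its DMM knee. In tissue of mixed cells, fewer cells of a type and less RNA per cell cannot be told apart.

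Of the 35 genes, 33 had enough counts to be tested, and 2 were higher in DMM knees, Pcolce and Pcolce2, which encode the procollagen C-proteinase enhancers. None was lower. Among all 13103 genes tested 0.633% were higher and 0.0153% lower, with edgeR's quasi-likelihood test, the mouse as a block and an adjusted p of 0.05 as the threshold. At an unadjusted p under 0.05, 14 of the 33 had a positive and 0 a negative fold change, against 3.12% of all genes with a positive one. The number of these genes at an unadjusted p under 0.05 fell to 3 when the DMM library of M04 was dropped and to 1 when the sham library of M05 was dropped, in fits that hold no mouse term. DESeq2 called 1 of the 33, Pcolce, and none as lower. The median log2 fold change of the 33 was 0.33, against -0.01 over all genes tested. Of the 33, 31 had a fold change above 0, as had 47.9% of all genes. This was 25 of 34 tested when the DMM library of M04 was left out, and 29 of 34 when the sham library of M05 was.

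The 2 sequences below are the promoters of the genes that passed, from 250 bases before to 50 bases after the transcription start, read from RefSeq on GRCm38.p6. The window of Pcolce is chr5:137611355-137611654 on the minus strand and that of Pcolce2 is chr9:95637378-95637677 on the plus strand. Capitals mark matches to the GC box, GGGCGG, which lie on the opposite strand and so read CCGCCC.
Pcolce: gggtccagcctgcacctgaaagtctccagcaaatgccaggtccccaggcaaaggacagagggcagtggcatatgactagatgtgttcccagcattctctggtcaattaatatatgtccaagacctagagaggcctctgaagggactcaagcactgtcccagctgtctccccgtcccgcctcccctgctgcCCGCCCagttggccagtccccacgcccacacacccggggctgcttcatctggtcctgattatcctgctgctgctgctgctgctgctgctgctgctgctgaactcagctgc
Pcolce2: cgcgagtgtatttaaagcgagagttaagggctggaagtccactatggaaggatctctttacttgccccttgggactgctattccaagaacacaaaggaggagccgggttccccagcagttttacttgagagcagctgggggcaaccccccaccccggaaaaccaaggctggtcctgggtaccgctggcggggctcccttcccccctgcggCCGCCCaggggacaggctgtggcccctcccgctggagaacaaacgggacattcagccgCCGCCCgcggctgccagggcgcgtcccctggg
Pcolce had 1 match, at position -60 counted from the transcription start, and Pcolce2 had 2. Neither window held the TATA box (letters TATAAA), the CAAT box (letters CCAAT) or the hypoxia core (letters ACGTG), searched on both strands. RefSeq promoters were at hand for 24 of the 35 genes, of which 21 held GGGCGG, against 35.7% of all 32851 promoters. ACGTG was in 12 of the 24 and in 19.6% of all, CCAAT in 8 and 37.4%, and TATAAA in 3 and 13.6%. The 24 genes were counted with 1 promoter each, and the background with every promoter at hand, not only those of tested genes. The shares are thus not like for like. These motifs overlap no other of the 4 in the printed windows, and a match is only a run of letters.

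Pcolce and Pcolce2 belong to the last step before fibrils form, in which the C-propeptide is removed. PCPE-1, the product of Pcolce, binds procollagen and speeds its cleavage by BMP1. Pcolce stood at 56.1 normalised CPM (counts scaled to library size, with TMM factors) in the sham and 109 in the DMM knee of M04, and at 48.1 and 90.2 in the pair from M05. Both DMM libraries were thus above both sham libraries, and the mice had nearly the same log2 ratio, 0.96 and 0.90. On the log2 scale Pcolce rose by 0.93, with an SE of 0.16 and an adjusted p of 2.84e-06. This SE and p take the spread from the trend across genes, not from Pcolce itself. Pcolce shares up to 112 bases of exon with Fbxo24 on the same strand in GENCODE M21, so some of its reads could belong to that gene. Pcolce2 encodes PCPE-2, a related enhancer. Its level was 21.6 (sham) and 30.8 CPM (DMM) for M04, and 10.1 and 27.3 CPM for M05. The groups did not overlap, but the ratio was larger in M05, at 1.42 against 0.51 in M04, and the sham library of M05 was the lowest of the 4. Pcolce2 rose by 0.95 (SE 0.20, adjusted p = 0.000757).

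In fits that leave out 1 library, which can hold no mouse term, Pcolce stood between 0.80 and 1.06. It passed without the sham library of M04 (adjusted p = 0.00404) and not without any of the other 3 (adjusted p from 0.333 to 1.0). Pcolce2 ranged from 0.42 without the sham library of M05 to 1.52 without that of M04, and again passed only in the latter fit. With all 4 libraries and no mouse term, edgeR called neither gene, and no other gene passed either, with 322 of all genes at an unadjusted p under 0.05.

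**Figure D1:**
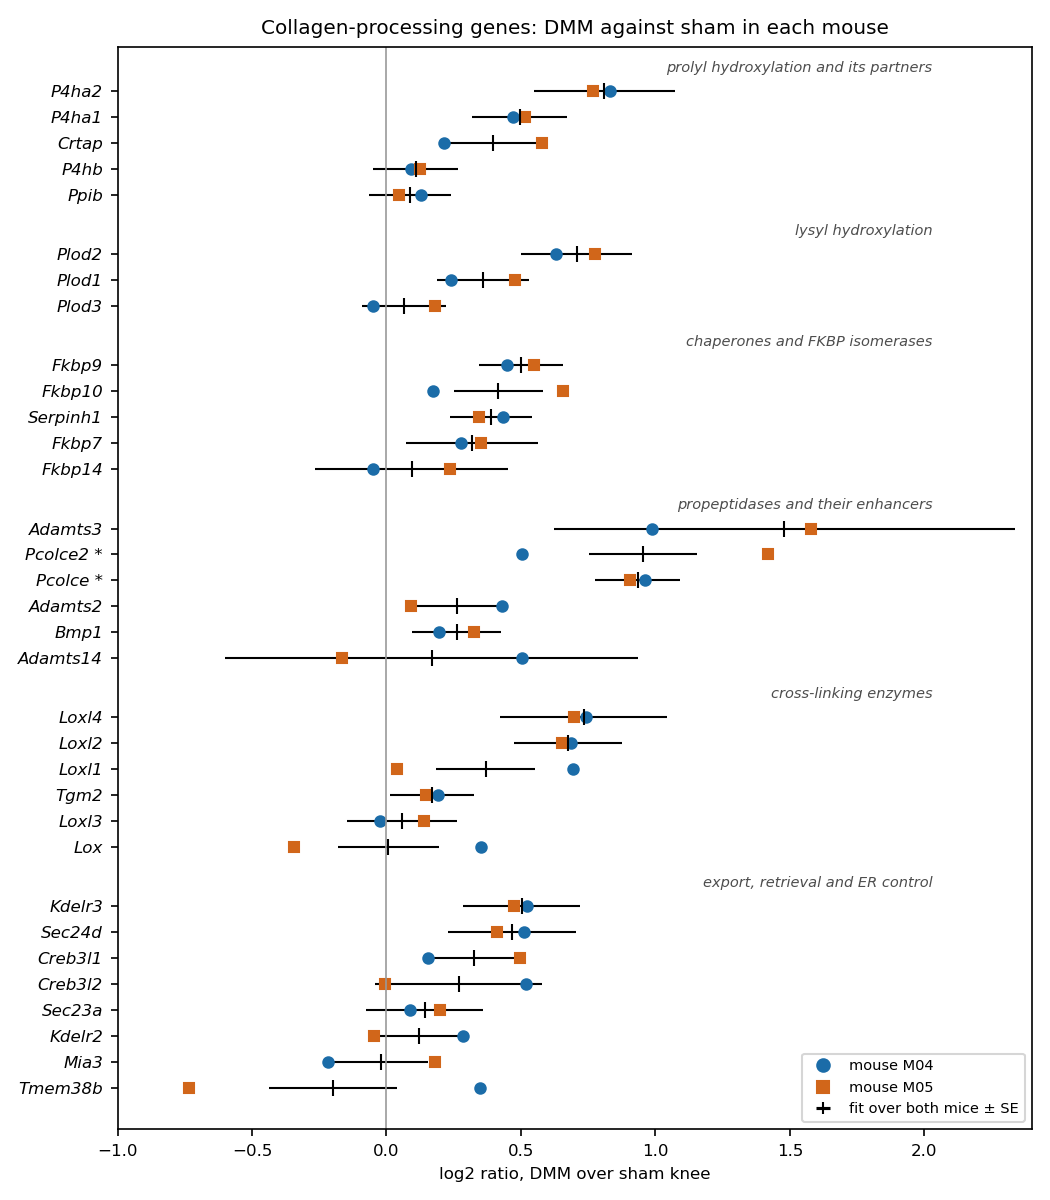
Log2 ratio of the DMM over the sham knee for the 33 tested genes (rows, by role), in M04 (circles) and M05 (squares), with the fitted log2 fold change and its SE (bars); an asterisk marks an adjusted p under 0.05. Of the 33 genes 24 lie above 0 in both mice, Pcolce and Pcolce2 carry the asterisk, and Tmem38b has the widest gap between the mice among genes of at least 5 CPM.

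The 6 tested genes for removal of either propeptide, Pcolce and Pcolce2 included, had a median fold change of 0.60. This median fell in a gap between Adamts2 (0.26) and Pcolce (0.93), with none of the 6 near it. None of the proteases among them passed. Bmp1, the main C-proteinase, stood at 50.4 and 57.7 CPM in the sham and DMM knee of M04 and at 39.8 and 49.8 CPM in the pair from M05. Its groups overlapped, and its fold change was 0.26 (SE 0.16, adjusted p = 1.0). Tll1, the related tolloid-like protease, had an estimated 0.05 counts in 1 library and 0 in the others, where a count of 0 allows up to 0.176 to 0.246 CPM, and could not be tested. Of the N-propeptidases, Adamts2 trims type I procollagen among others. It was at 40.7 (sham) and 54.8 CPM (DMM) for M04 and at 32.5 and 34.7 CPM for M05. Its fold change was 0.26 (adjusted p = 1.0). Adamts2 made up 92.1% to 96.1% of the summed FPKM of the 3 N-propeptidases in each library. Adamts3 and Adamts14 were at the limit of what the depth could show. Adamts3 had 10 (sham) and 24 (DMM) counts for M04, with 5 and 14 for M05, so its groups did not overlap. Its fold change of 1.48 came with an SE of 0.86 (adjusted p = 1.0), and was 0.89 without the sham library of M05. Adamts14 had a fold change of 0.17 (SE 0.77), with ratios above 0 in M04 and below 0 in M05.

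The 5 tested genes of prolyl hydroxylation had a median fold change of 0.40, and none passed, with 3 at an unadjusted p under 0.05 and 0 by DESeq2. Prolyl hydroxylation needs an alpha subunit, which holds the active site, and P4hb, the protein disulfide isomerase that serves as its beta subunit. The alpha subunit P4ha1 was at 31.8 (sham) and 44.1 CPM (DMM) for M04 and at 22.5 and 32.3 CPM for M05. The ratio was alike in the mice, 0.47 and 0.52, and the lowest DMM value lay just above the highest sham value. Its fold change of 0.49 (SE 0.18) did not pass, with an adjusted p of 0.364, and with 1 library of M04 left out it was 0.25 (DMM knee left out) or 0.76 (sham knee left out). P4ha2 was at 9.04 (sham) and 16.2 CPM (DMM) for M04 and at 6.98 and 12.0 CPM for M05. Its ratios were 0.83 and 0.77, and its fold change of 0.81 (SE 0.26) had an adjusted p of 0.211. The groups did not overlap in either gene.

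P4ha3, the third alpha subunit, was too low to test. Its counts were 2 (sham) and 9 (DMM) for M04, with 0 and 15 for M05, so the higher values were in the DMM libraries. Without a filter on low counts it had an adjusted p of 0.983. P4hb had the highest mean FPKM of the 35 genes and differed little between knees, at 509.9 and 543 CPM in M04 and at 520.5 and 567 CPM in M05 (fold change 0.11, SE 0.16, adjusted p = 1.0), though its groups did not overlap. P4hb also serves many other secreted proteins. Per transcript length, its FPKM was 17.8 times the summed FPKM of the alpha subunits in the sham and 12.2 times in the DMM knee of M04, and 24.7 and 17.1 times in the pair from M05. This ratio was lower in the DMM knee of each mouse, and the groups did not overlap.

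Crtap and Ppib (cyclophilin B) form, with P3h1, the complex that hydroxylates single prolines at carbon 3 and isomerises prolyl bonds. Crtap was at 45.4 (sham) and 52.6 CPM (DMM) for M04 and at 34.2 and 51.2 CPM for M05, with a fold change of 0.40 (SE 0.17, adjusted p = 0.645). Ppib was at 150.7 and 165 CPM in M04 and at 169.7 and 175 CPM in M05, so its groups overlapped (fold change 0.09, adjusted p = 1.0). P3h1, which is no member of the list, is described with the other genes of the pathway.

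**Figure D2:**
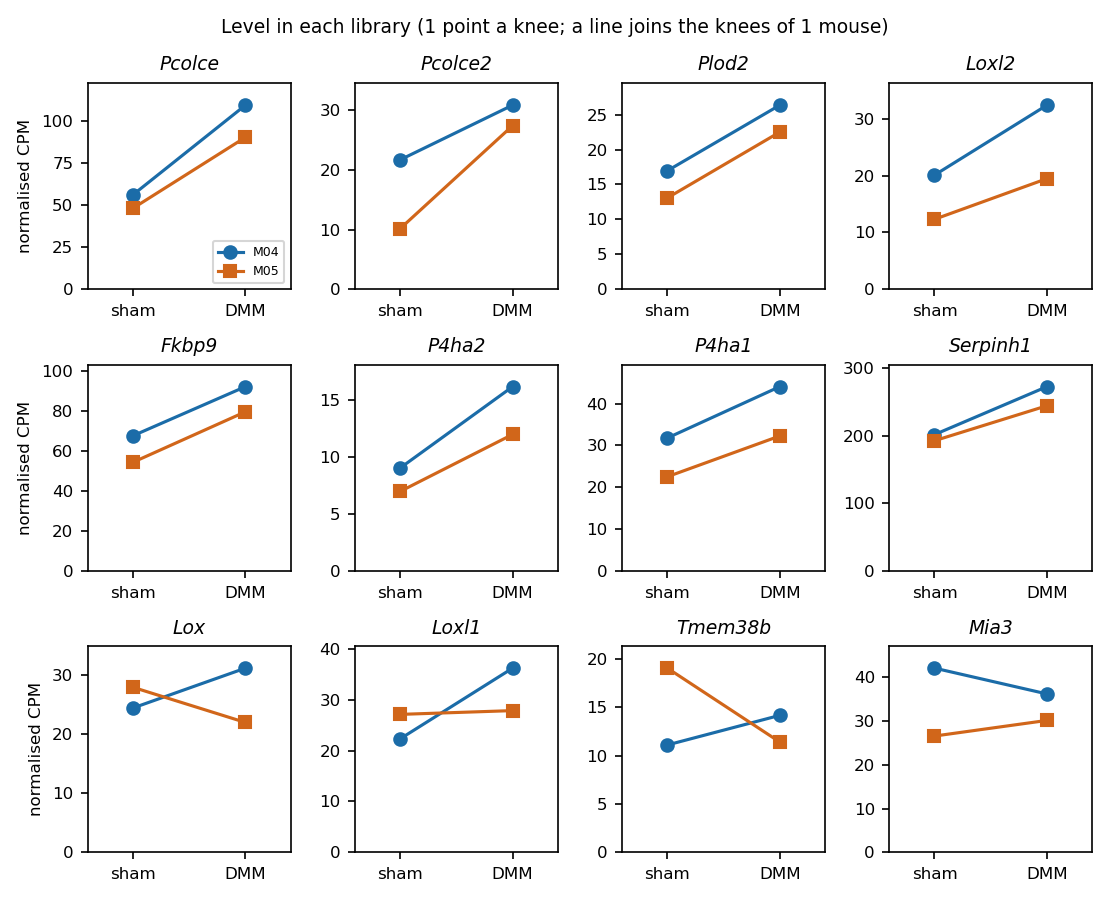
Normalised CPM of 12 genes in the 4 libraries, each panel on its own axis from 0; a line joins the sham and DMM knee of 1 mouse (circles M04, squares M05). In the first 8 panels both lines go up, and in those of Lox, Loxl1 and Tmem38b the lines cross.

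None of the 3 lysyl hydroxylases passed with edgeR or DESeq2, 2 were at an unadjusted p under 0.05, and their median fold change was 0.36. Lysyl hydroxylases set the later cross-links and the sites where sugars are attached. Plod2, which hydroxylates the telopeptides and so favours stable cross-links, was at 17.0 (sham) and 26.3 CPM (DMM) for M04 and at 13.1 and 22.5 CPM for M05. Its ratios were 0.63 and 0.78 and the groups did not overlap. With a fold change of 0.71 (SE 0.21) it had an adjusted p of 0.0834 and was the nearest to the threshold among those that missed it. Plod1, which acts on the helix, had a fold change of 0.36 (SE 0.17, adjusted p = 0.864), and Plod3, which also attaches glucose, one of 0.06 (SE 0.16, adjusted p = 1.0). By FPKM Plod2 was the smallest of the 3 in every library. It made up 10.9% of their sum in the sham and 15.7% in the DMM knee of M04, and 10.3% and 13.8% in the pair from M05, while Plod3 made up 62.0% and 54.1%, and 60.2% and 53.8%.

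Of the 5 chaperones and isomerases none passed with edgeR or DESeq2, 3 were at an unadjusted p under 0.05, and the median fold change was 0.39. Serpinh1 encodes HSP47, a chaperone dedicated to procollagen. It was at 202 (sham) and 273 CPM (DMM) for M04 and at 193 and 244 CPM for M05. Both DMM libraries were above both sham libraries, and the fold change of 0.39 (SE 0.15) had an adjusted p of 0.506. Fkbp9, a prolyl isomerase of the endoplasmic reticulum, was at 67.8 (sham) and 92.4 CPM (DMM) for M04 and at 54.5 and 79.8 CPM for M05. Its ratios of 0.45 and 0.55 were close to each other, and its fold change was 0.50 (SE 0.16, adjusted p = 0.161). Fkbp10 (FKBP65), which works with HSP47 on type I procollagen, had a fold change of 0.42 (SE 0.16, adjusted p = 0.543), with ratios of 0.17 (M04) and 0.66 (M05). Fkbp7 (0.32) and Fkbp14 (0.09), which are isomerases of the same family, each had an adjusted p of 1.0.

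The 6 cross-linking enzymes had a median fold change of 0.27, with none past the threshold by edgeR or DESeq2 and 3 at an unadjusted p under 0.05. The ratios of Loxl2 and Loxl4 were close to each other in the mice, while those of Lox and Loxl1 were apart. Loxl2, a lysyl oxidase with scavenger receptor domains, was at 20.1 (sham) and 32.4 CPM (DMM) for M04 and at 12.3 and 19.5 CPM for M05. Its ratios were 0.69 and 0.65, but the DMM library of M05 lay below the sham library of M04, so the groups overlapped. The fold change was 0.67 (SE 0.20, adjusted p = 0.105). It passed only without the sham library of M04 (1.08, adjusted p = 0.0297, in a range from there to 1.0 over all settings), and stood at 0.27 without the DMM library of M04. Loxl4, a close relative, was at 7.18 (sham) and 12.1 CPM (DMM) for M04 and at 4.46 and 7.31 CPM for M05 (fold change 0.73, SE 0.31, adjusted p = 0.645).

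Lox, the founding lysyl oxidase, had ratios of opposite sign, with 24.4 (sham) and 31.1 CPM (DMM) for M04 and 27.9 and 21.9 CPM for M05. The groups overlapped, and the fold change of 0.01 (SE 0.19) averaged ratios of 0.35 and -0.34. Loxl1, which also serves elastic fibres, was at 22.3 (sham) and 36.2 CPM (DMM) for M04 and at 27.1 and 27.8 CPM for M05, with ratios of 0.69 and 0.04 and a fold change of 0.37 (SE 0.18, adjusted p = 0.933). With 1 library left out it lay between 0.18 (without the DMM library of M04) and 0.55 (without that of M05). Loxl3, a further relative, had a fold change of 0.06, and Tgm2, a transglutaminase that cross-links many matrix proteins, one of 0.17, each with an adjusted p of 1.0. By FPKM Loxl1 was the largest of the 5 lysyl oxidases in every library, at 32.9% to 42.1% of their sum, and Loxl4 the smallest, at 3.98% to 7.47%. Whether the response differed between the mice could not be tested for any gene, because such a term would use up the 1 residual degree of freedom that the model with mouse and surgery leaves.

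The 8 genes of export, retrieval and control had the lowest median fold change of the 6 roles, at 0.20, and none passed with edgeR (1 at an unadjusted p under 0.05, 0 by DESeq2). Kdelr3, a receptor that returns escaped chaperones to the endoplasmic reticulum, was at 13.8 (sham) and 19.9 CPM (DMM) for M04 and at 14.3 and 19.9 CPM for M05. Its groups did not overlap (fold change 0.50, SE 0.22, adjusted p = 0.688). Its paralog Kdelr2 had a higher mean FPKM and a fold change of 0.12 (adjusted p = 1.0). Of the COPII coat genes, Sec24d, which picks cargo, had a fold change of 0.47 (adjusted p = 0.962) and its partner Sec23a one of 0.14 (adjusted p = 1.0). The membrane-bound transcription factors Creb3l1 and Creb3l2, which drive genes of collagen secretion, stood at 0.33 and 0.27 (adjusted p = 1.0 for each).

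The only fold changes below 0 belonged to the same group. Mia3 (TANGO1), which loads procollagen into carriers, was at 42.1 (sham) and 36.2 CPM (DMM) for M04 and at 26.6 and 30.1 CPM for M05, with a fold change of -0.02 (SE 0.18, adjusted p = 1.0). Tmem38b, a potassium channel of the endoplasmic reticulum that balances calcium release, was at 11.1 (sham) and 14.2 CPM (DMM) for M04 and at 19.1 and 11.4 CPM for M05. The sham library of M05 was its highest, and the fold change of -0.20 (SE 0.24, adjusted p = 1.0) averaged ratios of 0.35 and -0.73. Without that library it stood at 0.20. Loxl2 and Tmem38b had counts that were not whole in all 4 libraries, so some of their reads may have been divided with other rows.

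The log2 ratios had the same sign in both mice for most of the 33 genes. They were above 0 in both mice for 24 genes, against 23.2% of all genes tested, below 0 in both for 0, and of opposite sign for 9. The ratio was at least 0.3 in both mice for 12 of the 33, against 5.95% of all genes. Both DMM libraries were above both sham libraries for 18 of the 33, against 13.2% of all genes, and both below for 0, against 12.3%. The median ratio was 0.35 in M04 and 0.34 in M05, against 0.01 and -0.01 over all genes. These counts describe genes chosen with earlier results known, and they leave out P4ha3 and Tll1.

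**Figure D3:**
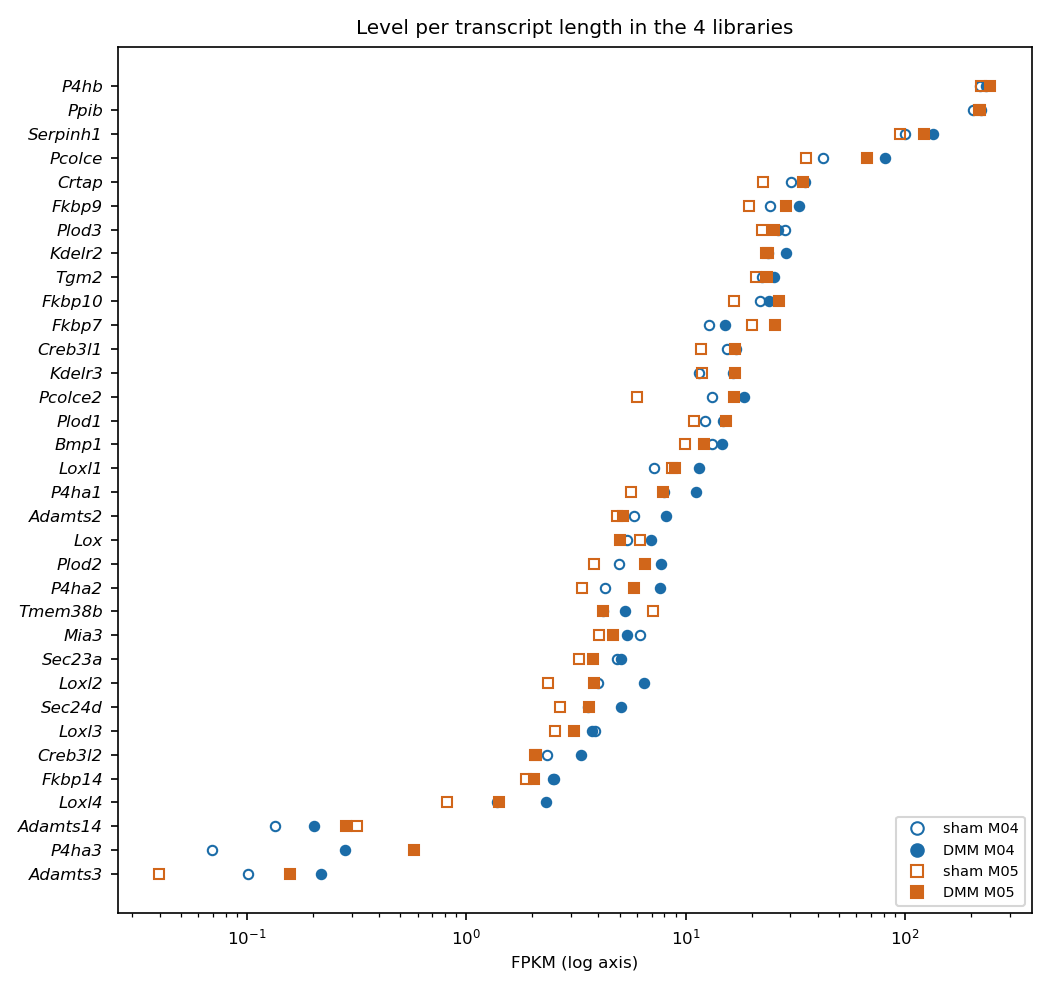
FPKM of 34 genes (rows, ordered by their mean) in the 4 libraries on a log axis; open symbols are sham and filled ones DMM knees, circles M04 and squares M05. Tll1, listed at 0 in all 4, is left out, as is the sham value of P4ha3 in M05, listed at 0; P4hb and Ppib lie above all others.

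Per transcript length the genes spanned a wide range. P4hb was at 220.0, 233, 222 and 245 FPKM in the sham and DMM knee of M04 and the sham and DMM knee of M05. Ppib was at 204, 221, 219 and 216 FPKM in the same order, and its range overlapped that of P4hb. Serpinh1 followed at 100.2, 134, 94.7 and 122 FPKM, and Pcolce at 42.3, 80.9, 35.5 and 67.1 FPKM, each clear of the one before. The genes in the middle of the order, from Crtap at a mean of 30.5 FPKM to Loxl4 at 1.48 FPKM, overlapped with their neighbours. At the low end Adamts14 had a mean of 0.234 FPKM, P4ha3 one of 0.231 and Adamts3 one of 0.129.

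Other genes of the pathway were taken from 4 further lists. Of 22 procollagen chains, the substrates of these enzymes, 8 were higher and 0 lower (4 by DESeq2), with a median fold change of 0.61. They were Col3a1 (2.08, SE 0.16), a chain of fibrous tissue, Col6a2 (1.17), Col6a1 (1.14) and Col6a3 (0.96) of the microfibrils around cells, the hypertrophic chain Col10a1 (1.04), Col9a3 (1.04) and Col9a1 (0.97) of cartilage fibrils, and Col27a1 (0.68). The next were Col11a1 (0.55, adjusted p = 0.0565) and Col2a1 (1.05, adjusted p = 0.0858). In each library the 35 genes together had far fewer counts than these chains, at 11.6% of them in the sham and 11.9% in the DMM knee of M04, and at 16.9% and 14.4% in the pair from M05.

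Of 20 further genes for modification and folding, 2 were higher and 0 lower, with a median of 0.15. Colgalt2, which attaches galactose to hydroxylysine, was at 10.4 (sham) and 12.7 CPM (DMM) for M04 and at 3.17 and 13.1 CPM for M05. The sham library of M05 was by far its lowest, and the other 3 lay close together. Colgalt2 rose by 1.11 (SE 0.29, adjusted p = 0.0275). P3h1, the prolyl 3-hydroxylase that partners Crtap and Ppib, was at 17.0 (sham) and 26.5 CPM (DMM) for M04 and at 12.8 and 23.1 CPM for M05. It rose by 0.74 (SE 0.21, adjusted p = 0.0487), with groups that did not overlap. DESeq2 called 0 of these 20. The next 2 were Rcn3 (0.44, adjusted p = 0.339), a calcium-binding chaperone, and Kdelr1 (0.37, adjusted p = 0.640), the third KDEL receptor.

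Of 18 tested genes for export none passed, with 2 higher and 0 lower at an unadjusted p under 0.05, 0 by DESeq2 and a median of 0.04. The nearest were the small GTPase Sar1a (0.33, adjusted p = 0.830) and Ergic1 (0.35, adjusted p = 0.894). Of 19 tested genes for propeptide removal, fibril assembly and cross-linking 3 were higher and 0 lower (2 by DESeq2), with a median of 0.44. They were the collagen-binding proteoglycans Fmod (1.30, SE 0.16) and Dcn (0.96, SE 0.15), and fibronectin, Fn1 (0.74, SE 0.16). The groups of Fmod and Dcn did not overlap. For Fn1 the DMM library of M05, at 485 CPM, lay below the sham library of M04, at 505 CPM. The next were Lum (0.59, adjusted p = 0.0822), which had ratios of 1.20 and -0.02, and Bgn (0.48, adjusted p = 0.286).

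Some markers of collagen-making cells were higher in DMM knees, but not all markers of each list passed. Of 16 chondrocyte markers 9 were higher and 0 lower, with a median ratio of 0.25 in M04 and 1.57 in M05, and DESeq2 called 0 of them. The list shares Col2a1, Col11a1, Col11a2 and the type IX chains with the procollagen chains. Of 11 osteoblast and osteocyte markers 2 were higher, Alpl and Ibsp (0 by DESeq2), and the median fold change of the list was 0.21. Sost (-0.52) and Phex (-0.49) had fold changes below 0, and 9 of the 11 were above 0. This list, which holds the chain Col1a1, took 0.681% and 0.815% of the counts in the sham and DMM knee of M04. In the pair from M05 it took 0.468% and 0.584%. Of 8 tested fibroblast markers 3 were higher, Col3a1, Dpt and Clec3b (2 by DESeq2), and Col3a1 is also one of the procollagen chains. Pi16 (-0.13), Pdgfra (-0.06) and Dpp4 (-0.03) had fold changes below 0, and 5 of the 8 were above 0. The fibroblast list took 0.0165% (sham) and 0.0560% (DMM) of the counts for M04 and 0.0110% and 0.0232% for M05. Tnmd and Scx were at 0 in the sham library of M04. The 35 genes took 0.181% (sham) and 0.235% (DMM) of the counts for M04 and 0.142% and 0.185% for M05. A higher share in DMM knees was not particular to these lists. Macrophage and osteoclast markers, with a median fold change of 0.05, took 0.240% (sham) and 0.280% (DMM) for M04 and 0.198% and 0.229% for M05. Of the erythroid, neutrophil, macrophage and osteoclast, endothelial, muscle, B lineage and megakaryocyte markers none passed with edgeR or DESeq2, and at an unadjusted p under 0.05 there were 1 macrophage and osteoclast marker higher and 1 erythroid marker lower. Erythroid markers took 25.7% (sham) and 21.1% (DMM) of the counts for M04 and 28.2% and 25.0% for M05, and muscle markers had median ratios of 1.53 and -1.86. The part of these cells in the values of the 35 genes was not tested.

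**Figure D4:**
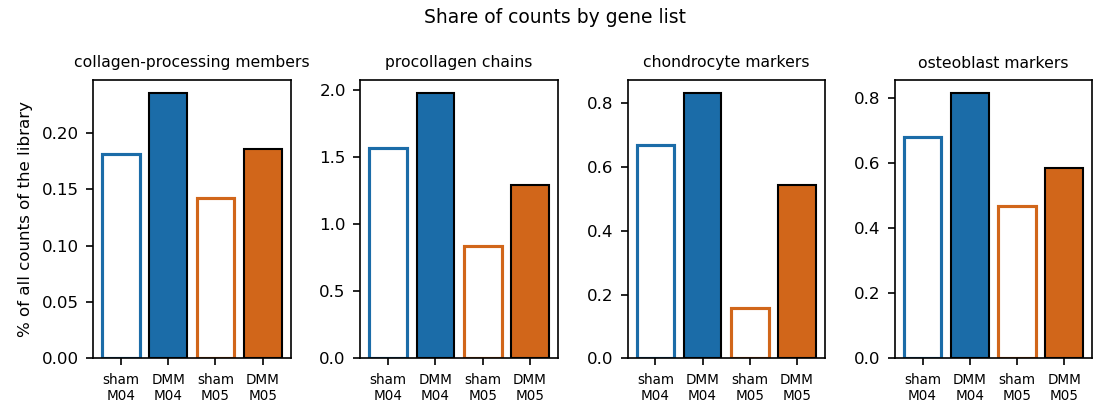
Percent of all counts of each library (bars from 0; open sham, filled DMM; each panel has its own axis) held by the 35 genes, 22 procollagen chains, 16 chondrocyte and 11 osteoblast and osteocyte markers. All 4 lists are higher in the DMM knee of each mouse, and the chondrocyte share of the sham library of M05, 0.159%, is the lowest of its panel. These are shares of all counts, without TMM factors. Haemoglobin rows took 30.3% (sham) and 25.7% (DMM) in M04 and 35.3% and 29.4% in M05.

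Between the animals, Loxl2 was the only one of the 33 genes past the threshold. It was lower in M05, at 12.3 and 19.5 CPM against 20.1 and 32.4 CPM in M04, with a log2 difference of -0.72 (SE 0.20, adjusted p = 0.0215). Each library of M05 was below the library of M04 with the same surgery. Of all genes 1.64% were lower and 0.962% higher in M05. DESeq2 called 0 of the 33 and gave Loxl2 no adjusted p, and Loxl2 missed the threshold without the haemoglobin rows (adjusted p = 0.0771), over a range from 0.0149 to 0.556 across the settings that give one. The nearest others were Pcolce2 (-0.61, adjusted p = 0.0702), Fkbp7 (0.72, adjusted p = 0.0855) and Adamts2 (-0.49, adjusted p = 0.0953). The fold change was below 0 for 27 of the 33 genes, with a median of -0.25, against 6668 of all 13103 genes and a median of -0.01. For the 22 procollagen chains 13 were lower in M05, all 22 fold changes were below 0 and the median was -0.84. Of the 16 chondrocyte markers 11 were lower in M05, all 16 fold changes were below 0 and the median was -0.98. The part of chondrocyte content in the differences between the animals was not tested.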

How the data were processed

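The authors deposited a table of estimated counts per gene, not all whole (9.21% to 10.9% of values were not), and a table of FPKM. Reads were single-end, of 100 bases, from poly(A) RNA, per the labels' protocols. Per the submitters' processing notes, GRCm39 (mm39) was used. Aligner, counter and strandedness: not given in the sources used here. Each library fills 2 equal columns of the count table and was used once. FPKM values, scaled by the authors for length and depth, served for levels between genes and for alternatives.

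After rounding to whole numbers, the tool for the counts was edgeR 4.0.16 (R 4.3.3): filterByExpr (13103 of 24421 genes), TMM, robust quasi-likelihood fit with mouse and surgery as terms, Benjamini-Hochberg over all genes, threshold 0.05. Each SE was taken as the fold change's size divided by the root of F. Per the labels each mouse gave both knees, so it entered as a block, a choice on which the calls depend and that was made knowing so. Deviations of same-mouse libraries correlated at 0.13. The fit leaves 1 residual degree of freedom. For 28 of the 33 tested genes the prior degrees of freedom were infinite, so their p-values take the spread from the trend across genes. Pcolce was among the 28 and Pcolce2 was not. P-values between M05 and M04 concern these 2 animals. Ratios per mouse use a prior count of 2, without a test.

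The free-text descriptions of the sham samples speak of a DMM knee, against title and treatment, which were followed. The motifs, the promoters printed and the ratio limit of 0.3 were chosen after the values were seen. The marker Snorc was matched as 3110079O15Rik and Cnmd as Lect1. The members, lists, rule for named genes and alternatives (limma 3.58.1 and DESeq2 1.42.0 among them) were chosen with earlier results of these data known. Values were named by this rule: genes past the threshold, the next 6 by p, the 3 lowest fold changes, the 4 with the largest gap between mice at a mean of at least 5 CPM, the 3 highest and 3 lowest by FPKM, and in the further lists the genes past the threshold and the next 2. Other members were to be given by fold change alone. The library values of Bmp1, Adamts2, Crtap, Kdelr3 and Loxl4 fall outside this rule and were added after they were seen. Also added then were the markers named with fold changes below 0, and the ratios and CPM of procollagen chains and Fn1.

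Exons of Ppib, Loxl3, Tgm2, Plod3, Fkbp10, Fkbp14 and Kdelr3 overlap genes of the opposite strand in GENCODE M21 (GRCm38), so their counts may hold reads of those genes.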

Additional observations from a re-analysis of the deposited data

Results flagged for a closer look

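The log2 ratios of Tmem38b and Lox had opposite signs in the mice, each at least 0.3 in size. Those of Tmem38b were 0.35 in M04 and -0.73 in M05, a difference of -1.08, and those of Lox were 0.35 and -0.34, a difference of -0.69. The limit was chosen after the ratios were seen, and the differences were not tested.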

How the results depend on the processing

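For the 35 genes, 2 calls for DMM against sham were also made with RLE size factors, without a low-count filter, at a mean of at least 5 CPM and without robust moderation. DESeq2 and edgeR without the haemoglobin rows left 1, Pcolce (adjusted p = 0.00302 and 0.00262), and lost Pcolce2 (0.799 and 0.0719). Without the replicate block for the mouse there were 0 (7 at an unadjusted p under 0.05), as with limma on log2(FPKM + 1) or log2(FPKM + 0.1) (9 in each). Leaving out 1 library gave 0 to 3 (1 to 13 at an unadjusted p under 0.05). Over all settings the adjusted p ran from 2.00e-06 to 1.0 for Pcolce and from 0.000101 to 1.0 for Pcolce2. All genes called fell from 85 to 35 with RLE, 13 with DESeq2, 23 without haemoglobin rows, 0 without the block and 0 with limma, and were 0 to 121 with a library left out. The median fold change of the members was 0.32 without the block, 0.28 with limma on log2(FPKM + 1) and 0.23 to 0.45 with a library left out. For M05 against M04 the 1 call became 0 with DESeq2, with limma and without haemoglobin rows, and 2 at a mean of at least 5 CPM, where Pcolce2 joined Loxl2; fits without the mouse term give no value. Fold changes above 0 fell from 31 of 33 members to 25 of 34 without DMM M04 and 29 of 34 without sham M05. Gene by gene, signs were followed only for genes named by the rule, and of these Tmem38b ran from -0.57 to 0.20 (without sham M05), Mia3 from -0.34 to 0.07 (without DMM M05) and 0.32 (without sham M04), and Lox from 0.25 to -0.07 (without sham M04) and -0.25 (without DMM M04). The cause was not tested. Depth limits Adamts3, Adamts14, P4ha3 and Tll1.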
